A study of Mus musculus with 6 samples.

Results

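Genes of the primitive endoderm and of its basement membrane, 10 in all, were followed across the 6 libraries of a study of Hnrnpf loss in mouse embryonic stem cells (ESCs). They were chosen by symbol, as rows of a table with 25170 gene symbols, and all 10 were found. Gata4 and Gata6 encode transcription factors, Pdgfra a growth factor receptor, Dab2 an endocytic adaptor and Sparc a collagen-binding secreted protein. Col4a1 and Col4a2 encode chains of type IV collagen, and Lama1, Lamb1 and Lamc1 encode an alpha, a beta and a gamma chain of laminin.

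Primitive endoderm is the layer of the late blastocyst that lies against the pluripotent epiblast and later forms visceral and parietal endoderm. Its cells secrete laminin and type IV collagen, which assemble into the sheets of the basement membrane, and their identity is driven by GATA factors downstream of fibroblast growth factor signalling. Laminin is secreted as a trimer of an alpha, a beta and a gamma chain, and Col4a1 and Col4a2 chains are built into a common trimer.

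Hnrnpf encodes an RNA-binding protein that takes part in splicing. The libraries were 2 from Hnrnpf knockout (KO) E14 cells after 4 days without leukemia inhibitory factor (LIF, the cytokine that keeps mouse ESCs self-renewing), 1 from wild type (WT) E14 cells after the same 4 days, 2 from Hnrnpf KO cells kept in LIF, and 1 from WT cells kept in LIF. E14 is an established mouse ESC line, grown here in medium with serum. Values are FPKM, a fragment count per transcript length and per mapped total, so levels of different genes can be set side by side. The labels number the KO libraries 1 and 2 in each medium. They do not say that these are separate cultures or clones, nor that a number stands for 1 clone across media. The p-values therefore rest on how far these 6 libraries scatter, and part of that scatter may be technical.

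Hnrnpf itself had 95.2 and 27.8 FPKM in KO libraries 1 and 2 after LIF removal against 335 in the WT library, and 98.7 and 37.1 in KO libraries with LIF against 342 in WT. Summed FPKM per library ranged from 456155 to 556318, and FPKM do not give the number of fragments behind a value (a raw count table named in the labels was not used here). All 8 ESC markers stood at 1 FPKM or more in every library. Of 10 further endoderm markers, which included Sox17, Foxa2 and Hnf4a, none reached the mean of 1 FPKM needed for a test, and Afp was listed at 0 in every library. Their summed level was 1.66 and 2.56 FPKM in KO after LIF removal against 1.13 in WT, and 0.823 and 2.09 in KO with LIF against 0.883 in WT. The label of endoderm therefore describes what the 10 genes are known for. ESC markers were present in all libraries, though all 8 fell on LIF removal, as given below.

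The start regions of the 3 members with the clearest response to LIF removal are shown because Col4a1 and Col4a2 begin head to head. Each window runs from 250 bases before to 50 after a transcription start in RefSeq (GRCm38.p6) and is written 5′ to 3′ on the strand of its gene. Capitals mark the motifs searched on either strand, namely CCAAT (the box bound by NF-Y), GGGCGG (the box bound by Sp factors) and GATAA (the core letters bound by GATA factors). No match overlapped another. The windows lie at chr8:11312777-11313076 (Col4a1, minus strand), chr8:11312555-11312854 (Col4a2, plus strand) and chr15:6299539-6299838 (Dab2, plus strand).
Col4a1: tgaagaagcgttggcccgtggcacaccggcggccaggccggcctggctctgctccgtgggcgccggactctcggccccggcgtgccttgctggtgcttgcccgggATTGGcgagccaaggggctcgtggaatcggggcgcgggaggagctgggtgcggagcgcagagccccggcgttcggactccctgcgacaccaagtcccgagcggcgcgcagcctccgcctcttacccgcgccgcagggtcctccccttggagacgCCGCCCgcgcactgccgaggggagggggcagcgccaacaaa
Col4a2: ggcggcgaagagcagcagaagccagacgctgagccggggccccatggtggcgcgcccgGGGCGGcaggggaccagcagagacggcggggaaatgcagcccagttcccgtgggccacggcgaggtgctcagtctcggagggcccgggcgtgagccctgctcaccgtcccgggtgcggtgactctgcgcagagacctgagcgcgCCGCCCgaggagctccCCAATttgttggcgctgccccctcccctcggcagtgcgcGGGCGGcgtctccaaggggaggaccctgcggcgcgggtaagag
Dab2: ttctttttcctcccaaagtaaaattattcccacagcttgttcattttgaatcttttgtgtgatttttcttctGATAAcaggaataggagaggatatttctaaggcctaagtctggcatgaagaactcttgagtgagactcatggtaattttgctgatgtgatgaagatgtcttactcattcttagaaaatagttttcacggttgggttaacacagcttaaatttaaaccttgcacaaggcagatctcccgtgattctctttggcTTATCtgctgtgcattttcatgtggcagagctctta
The Col4a1 and Col4a2 starts, at 11312826 and 11312805, are 21 bases apart, and their windows overlap over 78 bases. The GGGCGG nearest each start is the same site, read from both sides. G and C made up 74.0% of the Col4a1 window and 73.7% of the Col4a2 window, with 37 and 33 CpG, against medians of 52.7% and 7 CpG over 32851 windows of this length. The Dab2 window shown differed from both, with 37.7% G and C, 2 CpG and 2 matches to GATAA. A second Dab2 start in RefSeq had none of the 3 motifs, and its window held 59.3% G and C and 19 CpG. Which Dab2 start was used in these cells was not tested. Such matches are common: 37.4% of all windows held CCAAT, 35.7% held GGGCGG and 25.4% held GATAA. RefSeq windows were also matched for Lamb1, Sparc and Pdgfra, 6 members in all.

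Dab2, Col4a1 and Col4a2 rose on LIF removal over both genotypes, and Sparc was higher in KO than in WT cells over both media. In bulk RNA, more or fewer cells of a type and more or less RNA per cell cannot be told apart. Of the 8 members with a mean of at least 1 FPKM, 3 passed the test for LIF removal (limma on log2(FPKM + 1), Benjamini-Hochberg adjusted p under 0.05 over 11785 genes), all 3 higher without LIF, where 21.4% of all genes tested were called. The members' median difference was 0.51 on the log2 scale, beside -0.03 for all genes tested. For KO against WT over both media 1 of 8 passed, where 10.5% of all genes were called. That share is about the background, so the count says nothing particular of these genes. Gata6 and Pdgfra were under the minimum and were not in these fits. Col4a2 met the minimum through the libraries without LIF (1.92 to 5.95 FPKM, against 0.521 to 1.25 with LIF). The count of 3 and the median for LIF removal thus include a member admitted by the libraries in which it was higher. Lama1, not called, met the minimum through the libraries with LIF (0.804 to 2.71 FPKM, against 0.622 to 0.930 without). A gene with few FPKM changes less on this scale than its fold would say.

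**Figure D1:**
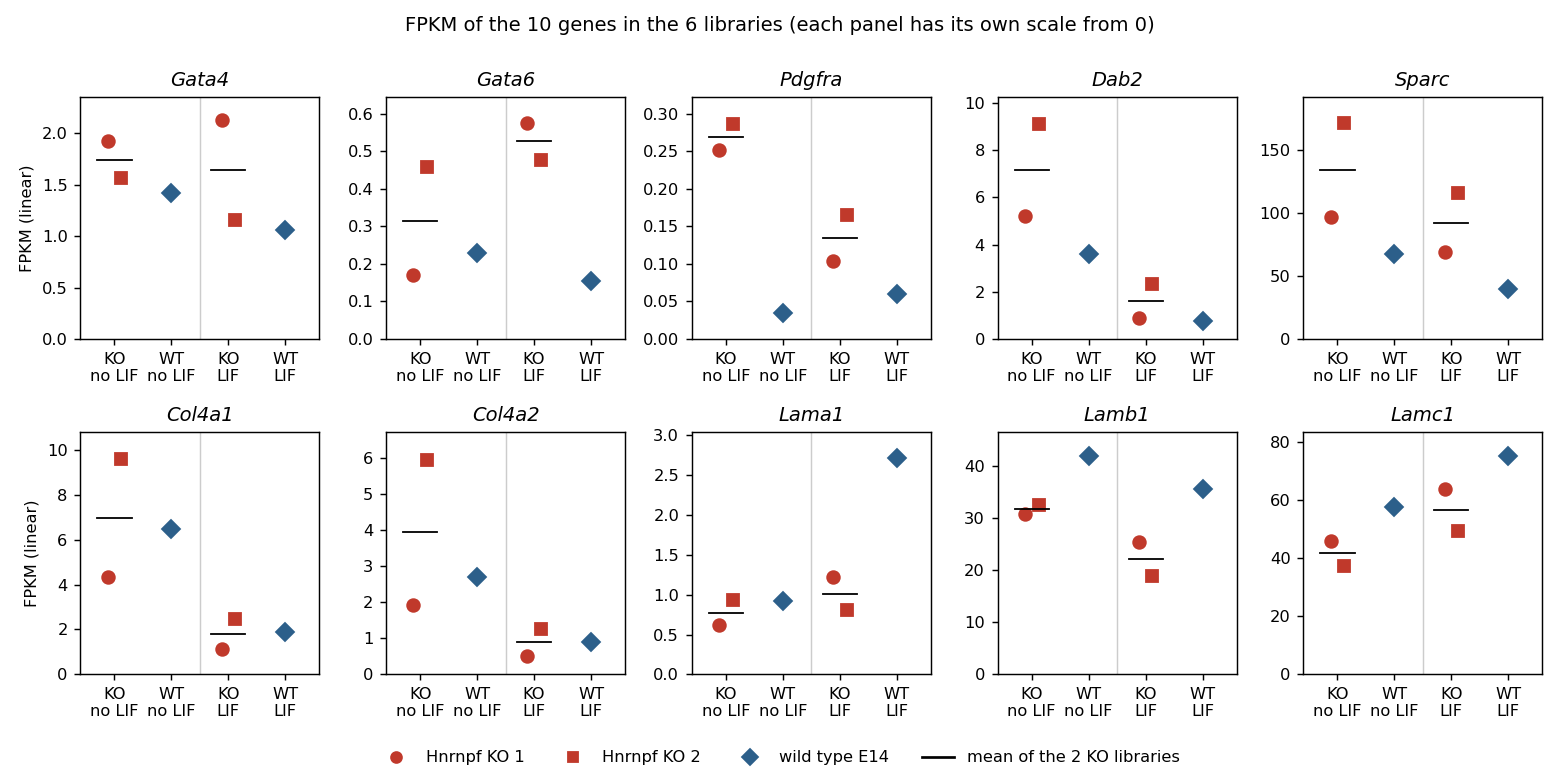
FPKM of each gene (vertical axes, linear, each from 0) in KO and WT libraries after LIF removal (left) and with LIF (right); points are libraries and lines are means of the 2 KO libraries. Dab2, Col4a1 and Col4a2 stood higher in all 3 libraries without LIF than in all 3 with LIF, and Sparc stood higher in all 4 KO than in both WT libraries.

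The endoderm transcription factors were low in every library. Gata4 (chr14:63198922-63271692) had 1.92 and 1.56 FPKM in KO libraries 1 and 2 after LIF removal against 1.42 in WT, and 2.13 and 1.16 in KO with LIF against 1.05 in WT. Both KO libraries stood above WT within each medium, but KO and WT overlapped over both media. On the log2 scale the fitted KO difference was 0.26 (limma, SE 0.22, adjusted p = 0.489) and that of LIF removal 0.13 (SE 0.20, adjusted p = 0.683). Gata6 (chr18:11052064-11085635) lay lower still, at 0.170 and 0.457 FPKM in KO after LIF removal against 0.229 in WT, and at 0.577 and 0.478 in KO with LIF against 0.154 in WT. The 2 KO libraries thus stood on either side of WT without LIF and above it with LIF.

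Pdgfra (chr5:75152292-75198215), the receptor for platelet-derived growth factor that marks primitive endoderm in the blastocyst, had the lowest mean over the 6 libraries, although Gata6 was lower in KO library 1 after LIF removal. It had 0.252 and 0.286 FPKM in KO after LIF removal against 0.0351 in WT, and 0.104 and 0.165 in KO with LIF against 0.0593 in WT. All 4 KO values lay above both WT values, all under the minimum for the test. In a fit without the minimum, over 18091 genes, the KO difference over both media was 0.20 (SE 0.07, limma adjusted p = 0.19) for Pdgfra and 0.25 (SE 0.12, adjusted p = 0.339) for Gata6, and neither passed.

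Dab2 (chr15:6299788-6440712), whose protein links cargo receptors such as megalin to clathrin, had the largest fitted rise among the members on LIF removal over both genotypes. It had 5.21 and 9.09 FPKM in KO after LIF removal against 0.900 and 2.32 in KO with LIF, and 3.62 in WT after removal against 0.767 in WT with LIF. Every library without LIF was above every library with it, by 5.79-fold and 3.92-fold within KO numbers 1 and 2 and 4.72-fold in WT. The fitted rise was 1.57 (SE 0.27, limma adjusted p = 0.00693), and it passed in each of the 6 fits that left out 1 library. In KO cells alone it was 1.66 (SE 0.35, adjusted p = 0.0429), the 1 member of 8 called there, where 6.92% of all genes were called. That call was lost without KO library 1 with LIF (adjusted p = 0.125) or KO library 2 after removal (adjusted p = 0.122). KO libraries stood above WT in both media, but the KO difference of 0.64 did not pass (SE 0.28, adjusted p = 0.187). Lrp2, which encodes megalin, had 33.2 and 44.0 FPKM in KO and 26.4 in WT after LIF removal, against 10.6 and 14.7 in KO and 10.8 in WT with LIF. Lrp2 rose by 1.43 (SE 0.17, adjusted p = 0.00196).

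Col4a1 (chr8:11198423-11312826) and Col4a2 (chr8:11312805-11449287) rose together when LIF was removed. Col4a1 had 4.33 and 9.57 FPKM in KO after LIF removal against 1.15 and 2.49 in KO with LIF, and 6.45 in WT after removal against 1.89 in WT with LIF. Col4a2 had 1.92 and 5.95 FPKM in KO after LIF removal against 0.521 and 1.25 in KO with LIF, and 2.70 in WT after removal against 0.908 in WT with LIF. For both genes every library without LIF exceeded every library with it. The rise was 1.43 for Col4a1 (SE 0.29, limma adjusted p = 0.0121) and 1.17 for Col4a2 (SE 0.33, adjusted p = 0.0381). Both calls rest on single libraries. That of Col4a1 was lost without the WT library with LIF (adjusted p = 0.0678) or after removal (0.07). That of Col4a2 was lost when any 1 library other than KO library 1 after removal was left out, with adjusted p between 0.0542 and 0.118, and without the filter on low values (0.0931). In WT cells alone, with 1 library on each side and no test, Dab2 and Col4a1 exceeded an absolute log2 difference of 1, 2 of 8 members where 8.36% of all genes did so.

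The KO libraries fell on both sides of WT for the collagen pair. In both media KO library 1 was below WT and KO library 2 above it, for Col4a1 and for Col4a2. The fitted KO differences were -0.03 (SE 0.30, limma adjusted p = 0.959) for Col4a1 and 0.12 (SE 0.35, adjusted p = 0.86) for Col4a2. The ratio of Col4a1 to Col4a2 was 2.26 and 1.61 in KO after LIF removal against 2.39 in WT, and 2.20 and 1.99 in KO with LIF against 2.08 in WT. It was lowest in KO library 2 after removal, where Col4a2 was 2.20-fold and Col4a1 1.48-fold the WT value. Tested genes within 10 Mb of the pair, 61 in all, had median differences from WT between -0.47 and -0.26 in the 4 KO libraries. Medians over 648 genes of chromosome 8 were -0.05 and -0.40 in KO libraries 1 and 2 after LIF removal and 0.08 and -0.35 with LIF. With the local median subtracted, the KO difference was 0.39 for Col4a1 and 0.55 for Col4a2, a value with no test. The part of the chromosome region in the pair's values was not tested.

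**Figure D2:**
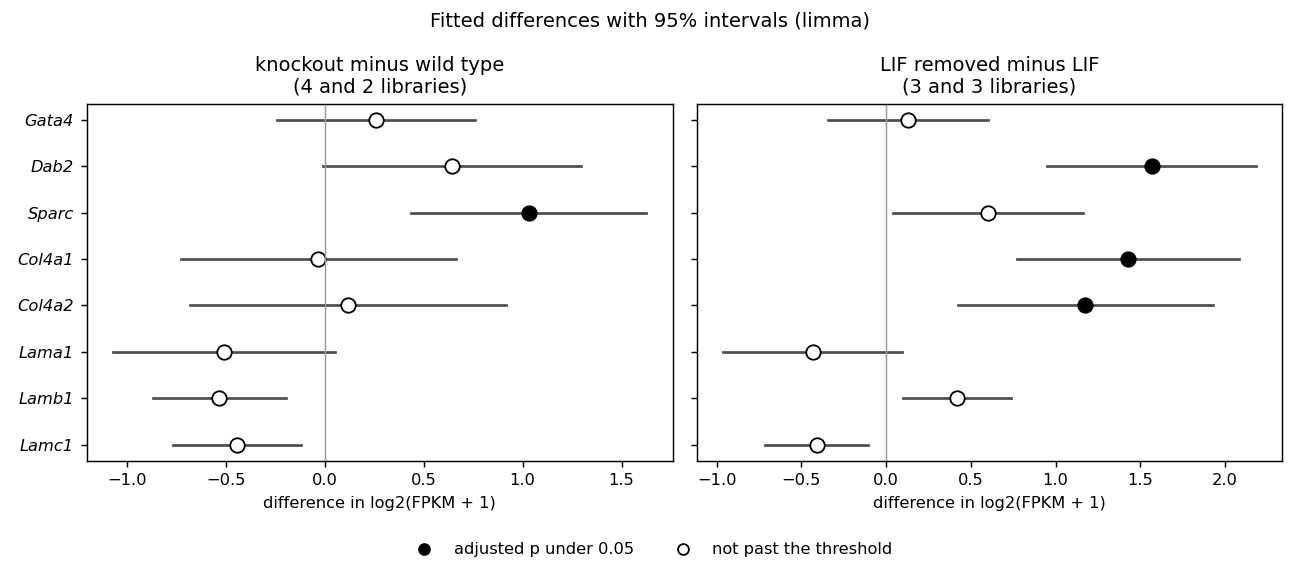
Differences in log2(FPKM + 1) fitted by limma (horizontal axes) for KO minus WT (left) and LIF removed minus LIF (right), with 95% intervals; filled points passed an adjusted p of 0.05. Sparc passed on the left, and Dab2, Col4a1 and Col4a2 on the right.

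No laminin chain passed the test in either comparison. Lamb1 (chr12:31265234-31329644) had 30.9 and 32.6 FPKM in KO after LIF removal against 41.9 in WT, and 25.4 and 18.9 in KO with LIF against 35.6 in WT. All 4 KO values lay below both WT values, and the KO difference was -0.53 (SE 0.15, limma adjusted p = 0.055), just short of the threshold. Lamc1 (chr1:153218922-153332786) had 46.0 and 37.3 FPKM in KO after LIF removal against 57.7 in WT, and 63.6 and 49.3 in KO with LIF against 75.2 in WT. KO was below WT within each medium, while the groups overlapped over both media (difference -0.44, SE 0.14, adjusted p = 0.0824). For LIF removal the fitted difference was 0.42 for Lamb1 (SE 0.14, adjusted p = 0.0636) and -0.41 for Lamc1 (SE 0.13, adjusted p = 0.0594), values of opposite sign of which neither passed.

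The ratio of the beta to the gamma chain differed by medium in these 6 libraries, a value with no test. Lamb1 stood at 0.672 and 0.874 of Lamc1 in KO and 0.727 in WT after LIF removal, against 0.399 and 0.383 in KO and 0.474 in WT with LIF. All 3 ratios without LIF exceeded all 3 with LIF, and KO and WT overlapped. Lama1 (chr17:67697259-67822647), the alpha chain of early embryonic laminin, was scarce at 0.622 and 0.930 FPKM in KO after LIF removal against 0.925 in WT, and 1.22 and 0.804 in KO with LIF against 2.71 in WT. The WT library with LIF stood far above the other 5, and the KO difference over both media was -0.51 (SE 0.24, limma adjusted p = 0.223). Lama1 was 2.01% and 2.85% of Lamb1 in KO after LIF removal against 2.21% in WT, and 4.79% and 4.25% in KO with LIF against 7.61% in WT. Lama5, which encodes another laminin alpha chain, exceeded Lama1 in every library, by 13.5-fold in WT with LIF to 54.5-fold in KO library 1 after removal.

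**Figure D3:**
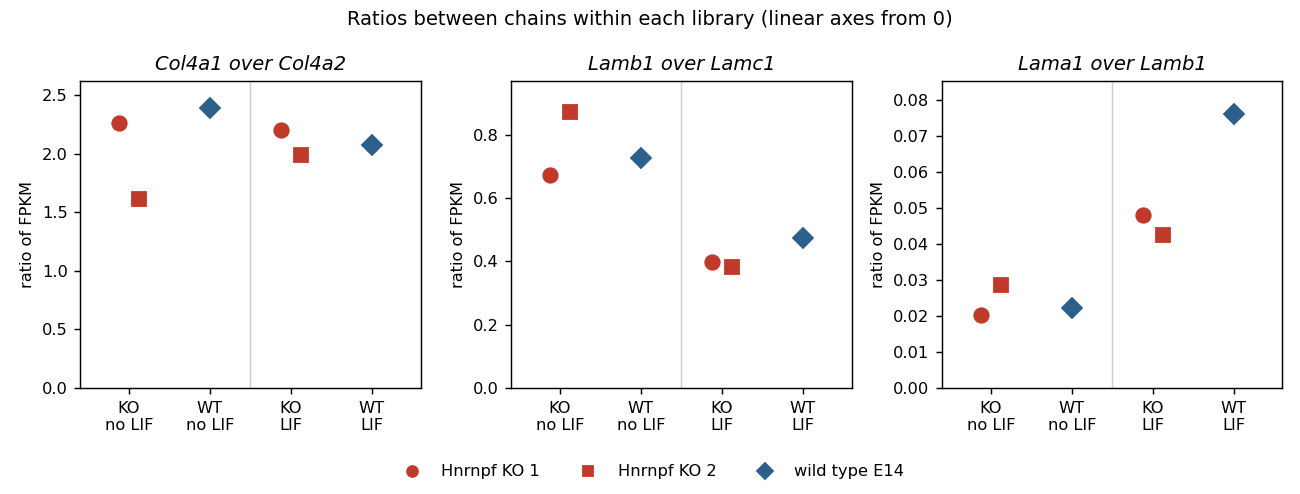
Ratios of FPKM between chains within each library (vertical axes, linear from 0), for KO and WT libraries after LIF removal (left) and with LIF (right); each point is 1 library. Lamb1 over Lamc1 was between 0.672 and 0.874 without LIF and between 0.383 and 0.474 with it, and Col4a1 over Col4a2 ranged from 1.61 to 2.39.

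Sparc (chr11:55394500-55423183), which encodes a matricellular glycoprotein abundant in parietal endoderm, had the highest mean over the 6 libraries of all members and was the 1 called for the KO, although Lamc1 exceeded it in WT with LIF. It had 97.3 and 172 FPKM in KO after LIF removal against 67.8 in WT, and 68.9 and 116 in KO with LIF against 40.0 in WT. All 4 KO libraries were above both WT libraries, the nearest pair being KO library 1 with LIF and WT without it. The KO difference was 1.03 (SE 0.26, 95% interval 0.44 to 1.62, limma adjusted p = 0.0426). The call was lost without the WT library with LIF (adjusted p = 0.33) or after removal (0.227), and without KO library 2 with LIF (0.0745) or after removal (0.0621). On LIF removal Sparc was 1.41-fold and 1.48-fold higher within KO numbers 1 and 2 and 1.69-fold higher in WT. The fitted difference was 0.60 (SE 0.24, adjusted p = 0.114), and libraries of both media overlapped.

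Genes around Sparc were also higher in KO cells. The 164 tested genes within 10 Mb had median differences from WT of 0.36 and 0.48 in KO libraries 1 and 2 after LIF removal and of 0.43 in both with LIF, and medians over 995 genes of chromosome 11 lay between 0.42 and 0.48. Sparc's own differences were 0.52 and 1.33 after LIF removal and 0.77 and 1.51 with LIF, above the local median in each library. With the local median subtracted, the KO difference of Sparc over both media was 0.59 in place of 1.03, a value with no test. The part of the chromosome in the difference was not tested.

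**Figure D4:**
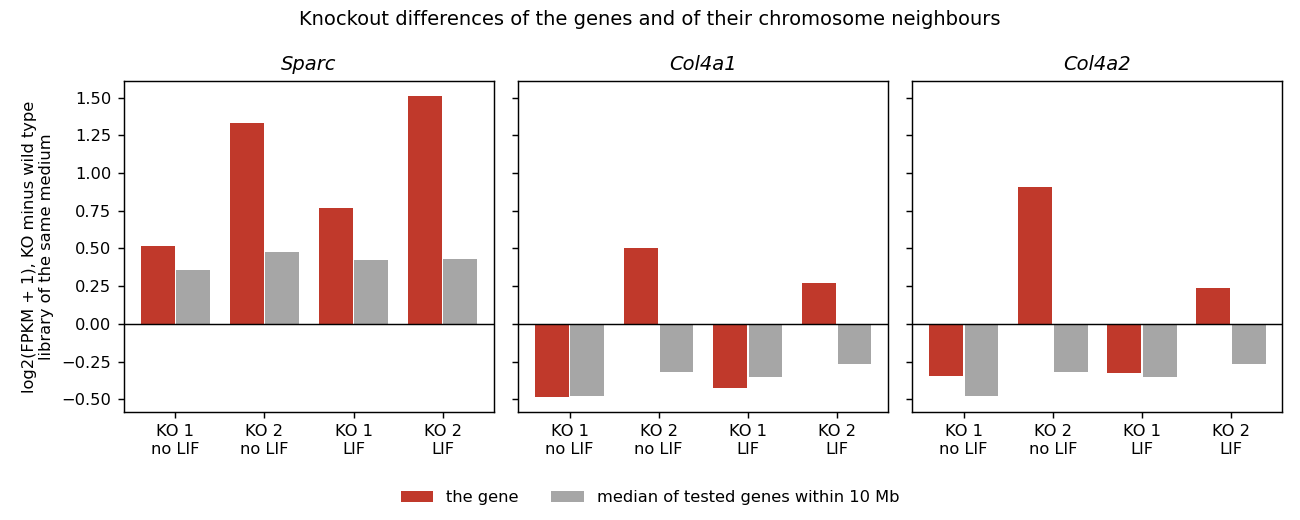
Difference in log2(FPKM + 1) of each KO library from the WT library of the same medium (vertical axis) for Sparc, Col4a1 and Col4a2 and for the median of tested genes within 10 Mb. Sparc and Col4a2 exceeded the median of their neighbours in all 4 libraries, Col4a2 by little in KO library 1 with LIF (-0.33 against -0.35). Col4a1 exceeded it in KO library 2 of each medium only.

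Within each medium no member passed the test of KO against WT. With LIF, 0 of 8 were called by limma, where 0.0424% of all genes were called, and the lowest adjusted p was 0.191. At an unadjusted p under 0.05 there were 3 of 8 members and 1972 of 11785 genes. After LIF removal, 0 of 8 were called, where 0.0594% of all genes were called, and the lowest adjusted p was 0.331. At an unadjusted p under 0.05 there were 0 of 8 members and 1826 of 11785 genes. These tests draw their spread from the KO pairs alone, and each lone WT library is assumed to vary like them. The difference between the KO and WT responses to LIF removal was not detected for any member (0 of 8 called by limma, where 0% of all genes were called; 0 of 8 members and 340 of 11785 genes at an unadjusted p under 0.05). Its largest fitted value was 0.77 for Lama1 (SE 0.43, adjusted p = 1).

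The KO libraries themselves differed. Dab2, Sparc, Col4a1, Col4a2 and Pdgfra were each higher in KO library 2 than in KO library 1 of the same medium. Gata4 and Lamc1 were lower in KO library 2 in both media. Gata6, Lama1 and Lamb1 were lower in it with LIF and higher after removal. In a fit of number 2 against number 1 over both media, which takes a number to mean the same in each, Sparc passed with 0.78 (SE 0.12, limma adjusted p = 0.0335), 1 of 8 members where 0.976% of all genes were called. Col4a1 gave 0.84 (SE 0.19, adjusted p = 0.0816), Col4a2 0.91 (SE 0.24, adjusted p = 0.135) and Dab2 0.75 (SE 0.19, adjusted p = 0.123), and these did not pass. Nor did Gata4 at -0.36 (SE 0.22, adjusted p = 0.518) or Lamc1 at -0.33 (SE 0.11, adjusted p = 0.249). The Sparc call was lost without KO library 2 with LIF (adjusted p = 0.125), KO library 1 after removal (0.0749) or KO library 2 after removal (0.0888). KO library 2 was also the one with less Hnrnpf in each medium. Its sums of endoderm, trophoblast and fibroblast markers were larger in each medium too, while those of mesoderm, endothelial and ESC markers differed in direction between media. No endoderm sum exceeded 2.56 FPKM over 10 genes. Among these, Amn had 0.297 and 1.03 FPKM in KO libraries 1 and 2 with LIF but 0.934 and 0.818 after removal. Foxa2 had 0.139 and 0.947 after removal. The part of any of these in the members' values was not tested.

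Each KO number was set against the same WT libraries, in fits added after the data had been seen. With number 1 alone, 1 of 8 members passed (10.1% of all genes), Sparc at 0.64 (SE 0.12, limma adjusted p = 0.016). With number 2 alone, 4 of 8 passed (17.5% of all genes). These were Sparc at 1.42 (SE 0.12, adjusted p = 0.00076), Dab2 at 1.02 (SE 0.19, adjusted p = 0.0115), Lamb1 at -0.62 (SE 0.15, adjusted p = 0.0294) and Lamc1 at -0.61 (SE 0.11, adjusted p = 0.0104). Because the WT libraries are shared, the 2 sets of values are not independent.

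Other genes of early endoderm moved in both directions when LIF was removed. Of 23 genes, 5 could be tested, 2 rose and 1 fell, with a median of 0.06, where 21.4% of all genes tested were called. Besides Lrp2, Fst, an activin-binding secreted protein, rose by 2.98 (SE 0.42, limma adjusted p = 0.00354), while Apoe, an apolipoprotein, fell, at -1.05 (SE 0.19, adjusted p = 0.00949). In KO against WT, where 10.5% of all genes were called, 0 rose and 1 fell, Apoe at -0.79 (SE 0.21, adjusted p = 0.0485). Rhox5, a homeobox gene of extraembryonic tissue, was higher in KO number 2 than in number 1 by 2.63 (SE 0.25, adjusted p = 0.0111), where 0.976% of all genes were called.

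Among 30 other basement membrane components, 15 were tested, and 4 rose and 3 fell on LIF removal, where 21.4% of all genes were called. Pxdn, the peroxidase that cross-links type IV collagen, rose by 1.10 (SE 0.14, limma adjusted p = 0.00254), and Npnt, an integrin ligand, by 0.98 (SE 0.19, adjusted p = 0.011). Npnt was under 1 FPKM in every library with LIF and met the minimum through those without it. Fn1, which encodes fibronectin, changed by -0.96 (SE 0.17, adjusted p = 0.00848), and Fbln1 by -0.64 (SE 0.15, adjusted p = 0.0216). The list's median was 0.11. In KO against WT, where 10.5% of all genes were called, 0 rose and 1 fell, Fbln1 at -0.73 (SE 0.16, adjusted p = 0.0297), with a median of -0.19.

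Of 17 receptors for the basement membrane, 14 were tested, and 3 rose and 2 fell on LIF removal, where 21.4% of all genes were called. The syndecan Sdc2 rose by 0.92 (SE 0.16, limma adjusted p = 0.0078), the laminin-binding integrin chain Itga3 by 1.16 (SE 0.28, adjusted p = 0.0246) and the collagen receptor Ddr1 by 0.84 (SE 0.21, adjusted p = 0.0285). Itga6, another laminin-binding integrin chain, changed by -0.52 (SE 0.14, adjusted p = 0.0324). None of the 14 was called in KO against WT, where 10.5% of all genes were called and Bcam had the lowest adjusted p, 0.0835, at -0.47. Itga3 was also higher in KO number 2 than in number 1, by 0.88 (SE 0.15, adjusted p = 0.047), where 0.976% of all genes were called.

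Of 23 genes that make or turn over collagen, 19 were tested, and 3 rose and 3 fell on LIF removal, where 21.4% of all genes were called. Plod2, a lysyl hydroxylase of collagen, rose by 1.14 (SE 0.12, limma adjusted p = 0.00141), and the metalloproteinase inhibitor Timp2 by 1.03 (SE 0.19, adjusted p = 0.00917). Timp2 was under 1 FPKM in every library with LIF and met the minimum through those without it. P3h1 and Crtap, whose proteins form a prolyl hydroxylase complex, changed by -0.75 (SE 0.14, adjusted p = 0.00848) and -0.54 (SE 0.14, adjusted p = 0.028). In KO against WT 2 of 19 rose and 0 fell, about the 10.5% of all genes called, so the count says nothing particular of this list. The 2 were P4hb and P4ha2, subunits of collagen prolyl 4-hydroxylase, at 0.55 (SE 0.10, adjusted p = 0.0167) and 0.66 (SE 0.16, adjusted p = 0.035). Like Sparc, both lie on chromosome 11, whose medians are given above.

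Of 16 inputs and partners of the members, 12 were tested, and 2 rose and 3 fell on LIF removal, where 21.4% of all genes were called. Fgf4, the ligand that drives primitive endoderm in the blastocyst, changed by -1.22 (SE 0.14, limma adjusted p = 0.00193), and Nanog, the epiblast factor opposed to Gata6, by -0.50 (SE 0.15, adjusted p = 0.047). Fgfr1, a receptor for Fgf4, rose by 0.61 (SE 0.11, adjusted p = 0.00772) and Gata3, a further GATA factor, by 1.16 (SE 0.23, adjusted p = 0.0117). Gata3 was under 1 FPKM in every library with LIF and met the minimum through those without it. In KO against WT, where 10.5% of all genes were called, 0 rose and 1 fell, Fgfr1 at -0.86 (SE 0.11, adjusted p = 0.00975). It had 30.4 and 35.1 FPKM in KO after LIF removal against 60.3 in WT, and 21.9 and 20.5 in KO with LIF against 38.9 in WT, so KO and WT did not overlap. Fgfr1 lies on chromosome 8, whose medians are given beside the collagen pair, and their part in its difference was not tested.

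Markers of ESCs and of other cell types also moved. All 8 ESC markers fell on LIF removal, where 21.4% of all genes were called. Their sum was 3713 and 3037 FPKM in KO and 4111 in WT after removal, against 6668 and 6687 in KO and 9460 in WT with LIF. Dppa5a was the largest part of each sum, with 4062 and 4115 FPKM in KO and 6460.5 in WT with LIF. For KO against WT over both media, 0 of the 8 ESC markers were called, where 10.5% of all genes were. Mesoderm and primitive streak markers, 6 in all, summed to 12.6 and 27.0 FPKM in KO and 19.1 in WT after removal, against 7.90 and 6.12 in KO and 6.59 in WT with LIF. Both that could be tested rose on LIF removal, T by 2.23 (SE 0.40, limma adjusted p = 0.00793) and Eomes by 0.93 (SE 0.20, adjusted p = 0.0148). T had 0.0426 to 0.711 FPKM with LIF and met the minimum only through the libraries without it (1.81 to 13.3), so a rise was part of how it came to be tested. Of the untested markers, Mixl1 and Gsc were higher in every library without LIF than in every library with it. Mesp1 and Tbx6 were not, and both were listed at 0 in KO library 1 after removal. The 6 trophoblast markers summed to 27.1 and 34.5 FPKM in KO and 17.1 in WT after removal, against 22.4 and 32.9 in KO and 37.6 in WT with LIF. Tfap2c was the highest of the 6 in every library, at 33.4 FPKM in WT with LIF and 10.7 in WT after removal. Its fitted change on LIF removal was -0.60 (SE 0.27, limma adjusted p = 0.147), while the median of the 5 tested was 0.60. Of the 5 tested, Hand1, on chromosome 11, was the only 1 called for LIF removal or for KO against WT. It rose on LIF removal by 1.04 (SE 0.27, limma adjusted p = 0.03). Hand1 was higher in KO than in WT by 1.11 (SE 0.29, adjusted p = 0.0466). For KO against WT 10.5% of all genes were called. Hand1 had 2.87 and 4.41 FPKM in KO and 1.33 in WT after removal, against 0.739 and 2.24 in KO and 0 in WT with LIF. It was thus under 1 FPKM in WT and in KO library 1 with LIF. Both Hand1 calls concern a gene that met the minimum through libraries in which it was higher. Fibroblast markers, 9 in all, summed to between 4.26 and 10.5 FPKM, and 6 endothelial markers to between 16.1 and 26.7. Among the endothelial markers, Emcn was listed at 0 in every library, and Cdh5, Kdr and Tie1 were under 1 FPKM in every library. Egfl7 and Tek were above 1 FPKM in every library. The part of such cells in the members' values was not tested.

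The profiles of the 5 chains over the 6 libraries were set against their mean. Centred on their own means, they lay between 0.21 (Lamb1) and 0.57 (Col4a1) from the mean profile of the 5 (root mean square distance in log2(FPKM + 1)). The tested genes nearest that mean were Zswim6 at 0.05, Rhog at 0.06, Rnpepl1 at 0.07, Arhgap28 at 0.07 and Frmd6 at 0.08. They were chosen as the nearest of all genes tested, so their distances are a description only.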

How the data were processed

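RNA-seq of 6 libraries was analysed from the authors' deposited table of FPKM per gene symbol. The labels also name a table of raw counts, which was not used here. Per the submitters' processing notes, STAR, Cufflinks and mm10 were used; versions, annotation and strand setting were not given in the sources used here. Values were analysed as log2(FPKM + 1), with no further scaling, for the 11785 genes averaging 1 FPKM or more; 8 of 10 members passed. Tests used limma 3.58.1 in R 4.3.3 (intensity trend, two-sided, Benjamini-Hochberg). Genotype and medium as added terms left 3 residual degrees of freedom, and 4 groups left 2. FPKM do not give the depth, so no interval for counting error is given. Members and lists were chosen with earlier results of these data known. All members were named, and from each other list up to 4 tested genes with the lowest p in a comparison. Gene positions are from GENCODE M21 (mm10). Scripts were tested on simulated data. A planned comparison of protein sequences was not made. Alternatives were pseudocount, filter, trend, scaling, local centring, replicate block and left-out libraries.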

Additional observations from a re-analysis of the deposited data

Results flagged for a closer look

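Gata6 and Pdgfra moved in opposite directions in KO and WT cells on LIF removal, in every library pair. Both KO libraries after removal were below both with LIF for Gata6, while the WT library was higher, a difference of responses of -0.32 in log2(FPKM + 1). For Pdgfra both KO libraries were higher after removal and the WT library was lower, a difference of 0.19. All values were under 1 FPKM, and the difference was not tested in the fits with the minimum. In the fit without it, limma's adjusted p was 0.985 for each.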

How the results depend on the processing

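No member's direction reversed where it had been called. For KO against WT over both media, 1 member was called; 0 were called without the filter on low values or without the intensity trend, 4 with KO number 2 alone (an alternative added after the data had been seen) and between 0 and 1 with 1 library left out. For LIF removal over both genotypes, 3 were called, 2 without the filter (Col4a2 lost, limma adjusted p = 0.0931) and between 1 and 4 with 1 library left out. With quantile normalization 4 were called, adding Lamb1 at 0.49 (adjusted p = 0.0367). For LIF removal in KO cells, 1 was called; 0 were called with a pseudocount of 0.1, without the filter or without the trend, and between 0 and 3 with 1 library left out. For KO number 2 against number 1, 1 was called; 0 were called without the filter or the trend and between 0 and 1 with 1 library left out. The cause was not tested. Over all genes, the 1232 called for KO against WT became between 5 and 994 with 1 library left out and 335 without the filter. Deviations of same-numbered KO libraries correlated at 0.37 over 11785 genes, but 2 pairs do not show that numbers pair the samples; with the number as a replicate block, 6 members were called for LIF removal over both genotypes, adding Sparc (adjusted p = 0.00259), Lamb1 (0.037) and Lamc1 (0.0114), and 6 in KO cells. Each lone WT library limits what can be said of WT spread.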
